A study of Arabidopsis thaliana with 12 samples.

Results

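JKD, CO2 and SGN3 are 3 genes of the root ground tissue, the layers of cortex and endodermis between the epidermis and the central stele. They were taken by name from the probe annotation, each with 1 single-gene probe set, out of 13356 genes that have such a probe set. Their signals were followed in nuclei of 2C, 4C, 8C and 16C DNA content, on 3 Affymetrix ATH1 arrays per class and 12 arrays in all. The nuclei came from Arabidopsis thaliana (Col-0) roots, cut from plants grown for 5 days in continuous light. All plants carried pCO2:YFP-H2B, a histone H2B joined to yellow fluorescent protein and driven by the CO2 promoter, so every class was sorted on the activity of that promoter and no class came from plants without the reporter. Root material was combined before sorting. Arrays of the same class are titled as biological replicates, with no word on separate growths or sorts, so that a p-value here reflects array-to-array spread, which may be technical.

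A 2C nucleus has the DNA of a diploid cell before replication. A 4C nucleus has copied it once, either ahead of a division or as the first round of the endocycle, in which DNA is copied again and again without division and which gives 8C and 16C nuclei. In the root the ground tissue layers are set up by SHR, a factor that moves out of the stele and works with SCR. JKD is a zinc finger factor of the INDETERMINATE DOMAIN (IDD) family that binds SHR and SCR, helps to keep SHR in the layer next to the stele, and acts in the cortex and endodermis. CO2 is a cortex gene of the cysteine-rich lipid-transfer superfamily, known through its promoter. SGN3, also called GSO1, is a receptor kinase of the endodermis that perceives the sulfated CIF peptides and is needed for an unbroken Casparian strip, the ring of wall material that seals this layer.

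In the TAIR10.1 gene table JKD (AT5G03150) lies on chromosome 5 from 745421 to 749028, CO2 (AT1G62500) on chromosome 1 from 23131928 to 23133507, and SGN3 (AT4G20140) on chromosome 4 from 10883921 to 10888270. The table names SGN3 by its symbol GSO1 and CO2 by its locus code alone. None of the 3 was on a probe set with several genes. Values below are log2 RMA signals, in which the distributions of the arrays were made alike, so a change in the total RNA of a nucleus with its DNA content cannot be seen. In sorted bulk nuclei, fewer nuclei of a type and less RNA per nucleus cannot be told apart. No detection call goes with the signals.

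Across the classes JKD and SGN3 differed and CO2 did not pass the test. JKD was highest in 8C and SGN3 in 4C, and neither was a gene that went one way at every doubling. In the moderated F test of limma over the 4 classes, with p-values adjusted over all 22746 probe sets, 2 of the 3 genes passed, beside 17.3% of all probe sets. The adjusted p was 0.00485 for JKD, 0.0449 for SGN3 and 0.746 for CO2. Among all probe sets 5.54% passed with the highest mean in 8C and 1.77% with the highest mean in 4C. Each gene was also tested by itself with an exact permutation of the arrays among the classes (369600 ways, not adjusted), which gave p = 0.000584 for JKD, p = 0.0105 for SGN3 and p = 0.739 for CO2.

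**Figure D1:**
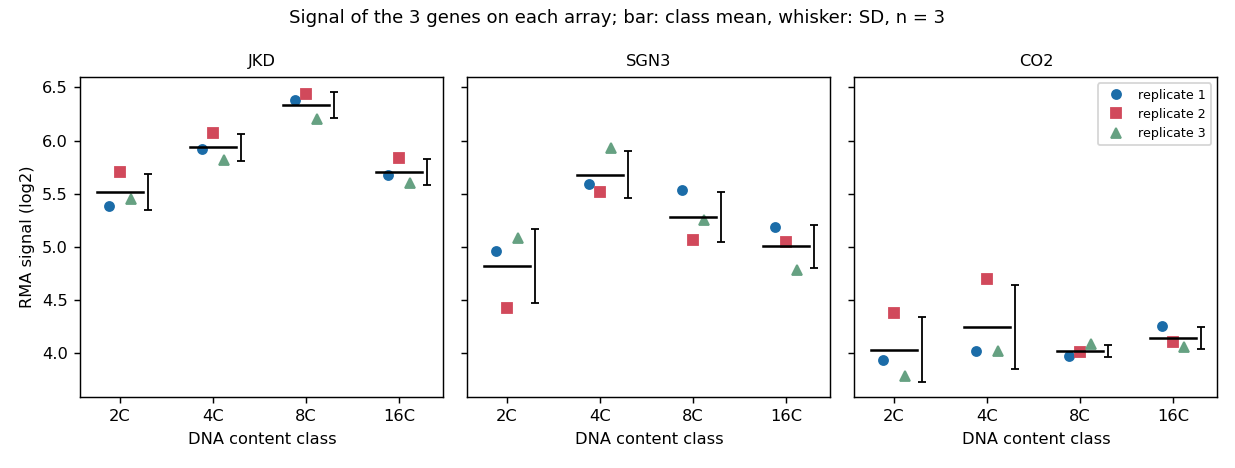
The RMA signal (log2, vertical axis) of JKD, SGN3 and CO2 on each of the 12 arrays, by DNA content class (horizontal axis). Symbols are replicates, horizontal bars class means and whiskers SDs (n = 3). JKD peaks at a mean of 6.34 in 8C, SGN3 at 5.68 in 4C, and the CO2 class means lie between 4.02 and 4.25.

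JKD had signals of 5.39, 5.71 and 5.45 on the 2C arrays, 5.92, 6.07 and 5.82 in 4C, 6.38, 6.43 and 6.20 in 8C, and 5.67, 5.84 and 5.60 in 16C. The lowest 4C array lay above the highest 2C array, the lowest 8C array above the highest 4C array, and the highest 16C array below the lowest 8C array. Over all probe sets, 7.76% had 4C above 2C without overlap, 17.5% had 8C above 4C, 11.3% had 16C below 8C, and 0.941% had arrays apart at each of these 3 steps in the same directions. All 8C arrays lay above all 2C arrays too, as for 21.3% of probe sets. The 16C arrays overlapped those of 2C and those of 4C. In the order of the class means, 8C was highest with 6.34 ± 0.12 (SD, n = 3), followed by 4C with 5.94 ± 0.13, 16C with 5.70 ± 0.12 and 2C with 5.51 ± 0.17.

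Of the 6 differences between classes, 1 passed for JKD. It was 0.83 ± 0.12 log2 units (SE) higher in 8C than in 2C, or 1.77-fold (limma adjusted p = 0.00114), in a comparison where 21.9% of all probe sets were called and 10.3% were called higher. The single steps did not pass in this fit, which had no replicate block. With a fixed replicate block 8C minus 4C and 16C minus 8C were called, as given in the last section. The difference of 4C minus 2C was 0.42 (95% interval 0.16 to 0.69, adjusted p = 0.145), that of 8C minus 4C was 0.40 (0.14 to 0.67, adjusted p = 0.0595), and that of 16C minus 8C was -0.64 (-0.90 to -0.37, adjusted p = 0.0762, or 0.0186 with array weights at -0.58). Of 25 alternative settings, 4C minus 2C was called in 0, 8C minus 4C in 4 and 16C minus 8C in 2. Few probe sets were called at the first and last of these steps, 0.602% and 0.259%, against 9.9% at 8C minus 4C. The 16C mean was 0.19 above that of 2C (-0.07 to 0.45, adjusted p = 0.315) and the 16C minus 4C difference was -0.23 (-0.50 to 0.03, adjusted p = 0.341). A straight line over the doublings gave JKD a slope of 0.10 ± 0.04 per doubling (SE, adjusted p = 0.0916, or 0.0476 without 2C replicate 2), against 21.5% of all probe sets with a called slope. The JKD slope was called in 2 of 25 alternative settings.

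SGN3 had signals of 4.96, 4.42 and 5.08 in 2C, 5.59, 5.52 and 5.93 in 4C, 5.53, 5.06 and 5.25 in 8C, and 5.18, 5.04 and 4.78 in 16C. All 4C arrays lay above all 2C arrays and above all 16C arrays, while the 8C arrays overlapped those of every other class. The mean was highest in 4C with 5.68 ± 0.22 (SD, n = 3), then 5.28 ± 0.24 in 8C, 5.00 ± 0.20 in 16C and 4.82 ± 0.35 in 2C. No neighbours in that order passed the test of their difference. Over all probe sets, 4C lay above 2C without overlap for 7.76% and 16C below 4C for 13.5%.

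None of the 6 differences passed for SGN3 in the fit with equal array weights. That of 4C minus 2C was 0.86 ± 0.20 (SE, 95% interval 0.42 to 1.3, limma adjusted p = 0.0902), or 1.81-fold. That of 16C minus 4C was -0.67 ± 0.20 (-1.11 to -0.23, adjusted p = 0.0956, or 0.0382 with array weights at -0.56), where 3.57% of all probe sets were called. Array weights were the 1 of 25 alternative settings that called 16C minus 4C for SGN3. The 8C minus 2C difference was 0.46 (0.02 to 0.90, adjusted p = 0.121), or 0.26 without 2C replicate 2, that of 8C minus 4C -0.40 (-0.83 to 0.04, adjusted p = 0.239) and that of 16C minus 8C -0.28 (-0.72 to 0.16, adjusted p = 0.689). The 16C mean was 0.18 above the 2C mean (-0.26 to 0.62, adjusted p = 0.566), and the slope was 0.02 ± 0.06 per doubling (adjusted p = 0.88). The class test of SGN3 rested on single arrays, since it missed the threshold when any one array was left out other than 2C replicate 3 (adjusted p = 0.0349) or 8C replicate 2 (0.0495), with the highest adjusted p, 0.109, without 4C replicate 3.

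CO2, whose promoter drove the sorted reporter, had signals of 3.94, 4.37 and 3.78 in 2C, 4.02, 4.70 and 4.02 in 4C, 3.97, 4.01 and 4.08 in 8C, and 4.25, 4.11 and 4.06 in 16C. The arrays of all classes overlapped, and 4C replicate 2 and 2C replicate 2 were the highest of the 12. The class means from 2C to 16C were 4.03 ± 0.31, 4.25 ± 0.39, 4.02 ± 0.06 and 4.14 ± 0.10 (SD, n = 3), with no pair of them apart beyond the spread. None of the 6 differences passed, and the slope was 0.01 ± 0.06 per doubling (SE, limma adjusted p = 0.92).

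The intervals of the CO2 differences, from the fit without covariates, reached at most 0.66 in size on either side. The difference of 8C minus 2C was -0.01 (95% interval -0.44 to 0.42) and that of 16C minus 2C was 0.11 (-0.33 to 0.54), while 4C minus 2C was 0.21 (-0.22 to 0.65), 8C minus 4C -0.22 (-0.66 to 0.21), 16C minus 8C 0.12 (-0.32 to 0.55) and 16C minus 4C -0.11 (-0.54 to 0.33). The CO2 probe set was also dim. Its mean lay at percentile 19.6 of all probe sets. That of SGN3 lay at percentile 47.6 and that of JKD at 58.3. Probe sets bind their targets unequally, so that these ranks do not order the transcripts of the 3 genes.

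**Figure D2:**
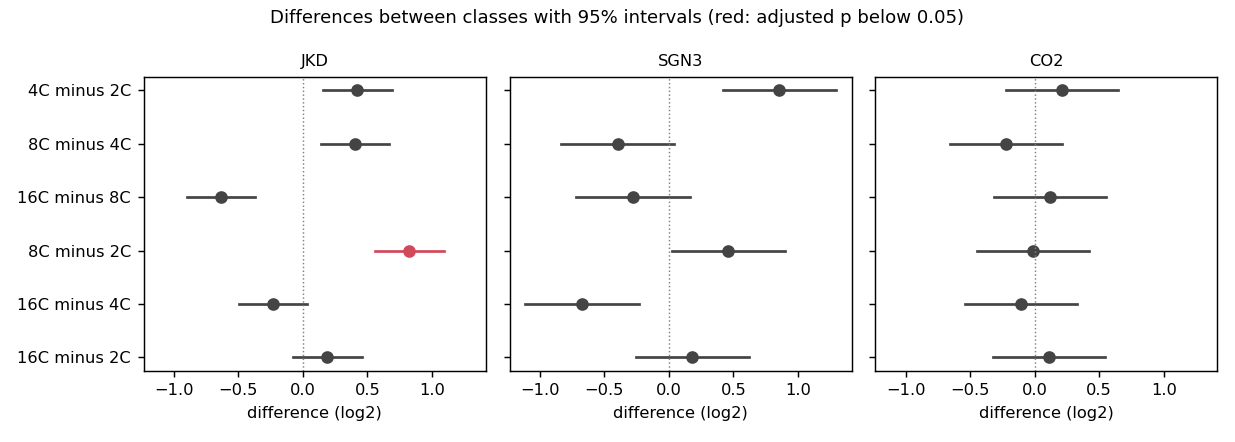
Differences between classes (log2, horizontal axis) for JKD, SGN3 and CO2, the class with more DNA minus that with less, with 95% intervals from the limma fit. Red marks an adjusted p below 0.05, which holds only for 8C minus 2C of JKD (0.83); the largest value for SGN3 is 0.86 for 4C minus 2C.

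Whether the genes changed unequally was asked from their difference on each array, for the 3 pairs of genes. JKD minus SGN3 was 0.85, 1.37 and 0.95 on the 8C arrays and 0.33, 0.55 and -0.11 on the 4C arrays, so that all 8C arrays lay above all 4C arrays. Its class means from 2C to 16C were 0.69, 0.26, 1.06 and 0.70. The variation over the 4 classes did not pass an exact permutation test of the F statistic (p = 0.138, or 0.206 when adjusted for 3 pairs), so that different peaks of JKD and SGN3 were not shown. JKD minus CO2 varied over the classes (exact permutation p = 0.00916, adjusted p = 0.0275), with means of 1.48, 1.69, 2.32 and 1.56 from 2C to 16C, and SGN3 minus CO2 did not pass (exact permutation p = 0.337, adjusted p = 0.337). CO2 was dim and did not pass its own class test, so JKD minus CO2 largely repeats the class test of JKD. The pairs were not tested with the covariates given below. The class test of the pairs was added after seeing the data. The slopes of the 3 differences, the planned test, were 0.08 for JKD minus SGN3, 0.09 for JKD minus CO2 and 0.01 for SGN3 minus CO2 (exact permutation, two-sided, adjusted p = 0.712, 0.712 and 0.97).

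Control measures of the arrays moved with the classes too. The 3' minus 5' difference of actin, on the log2 scale, had class means from 2C to 16C of 4.55 ± 0.16, 3.90 ± 0.11, 3.42 ± 0.12 and 3.8 ± 0.17 (SD, n = 3). It was lowest in 8C, where JKD was highest, and highest in 2C, where JKD was lowest. With this difference as a covariate, JKD was 0.57 ± 0.45 higher in 8C than in 2C (SE, adjusted p = 0.999), and the class test gave adjusted p = 0.345 for JKD and 0.235 for SGN3. Since the actin difference moved with the classes, the SE of JKD in 8C minus 2C rose from 0.12 to 0.45. Where class and covariate move together, the fit cannot tell them apart. A call lost with the actin covariate, here and below, thus does not show that a difference is absent. The estimates for SGN3 were larger in that fit, with 4C minus 2C at 1.29 ± 0.44 and 8C minus 2C at 1.21 ± 0.71 (SE), beside 0.86 and 0.46 without the covariate. CO2 had an 8C minus 2C difference of -0.71 ± 0.71 in it. The bacterial poly-A spikes had class means of 10.9, 10.5, 9.0 and 8.94 from 2C to 16C. With them as a covariate JKD kept its call in 8C against 2C (0.87 ± 0.19, adjusted p = 0.0281) and SGN3 lost its class test (adjusted p = 0.103), with 4C minus 2C at 0.82 ± 0.20 and 16C minus 4C at -0.84 ± 0.28. The part of RNA quality in these differences was not tested beyond these fits. Of the 16C arrays, replicates 1 and 2 were the closest pair within any class (r = 0.996 over the probe sets, against at most 0.983 for the rest). With their mean as 1 sample the class test gave adjusted p = 0.0108 for JKD and 0.0726 for SGN3.

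**Figure D3:**
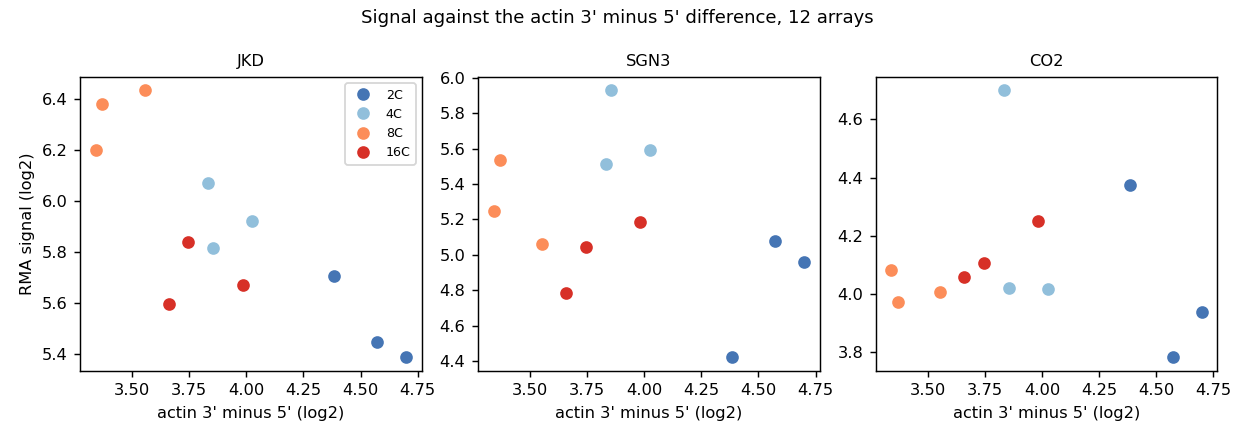
The signal (log2, vertical axis, a scale of its own in each panel) of JKD, SGN3 and CO2 against the actin 3' minus 5' difference (log2, horizontal axis) of the same array, coloured by class. The 8C arrays, with actin class mean 3.42, hold the highest JKD signals, and the 2C arrays, with 4.55, have the lowest JKD mean but overlap those of 16C; SGN3 is highest on the 4C arrays in the middle of the axis.

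The sorted tissue was checked by marker lists. All 3 cortex markers were measured, and none passed in any comparison. Over all probe sets 17.3% passed the class test, 21.5% had a called slope and 0.259% to 21.9% were called in a difference. Beside CO2, AT1G09750 had means from 2C to 16C of 4.86 ± 0.86, 4.68 ± 0.28, 4.32 ± 0.03 and 4.24 ± 0.13 (SD, n = 3), at percentile 32.8 of all probe sets. Of 11 endodermis markers only SGN3 itself and EN7 (AT4G28100) had a single-gene probe set, and EN7 had means of 4.66, 5.10, 4.81 and 5.07 from 2C to 16C, with no call. Among these listed markers SGN3 was thus nearly the only view of the endodermis, and 0 of 5 stele and 0 of 3 root cap markers were measured. Of 6 epidermis and root hair markers 2 were measured and both were called higher in 16C than in 2C, where 6.18% of all probe sets were called higher. EXPA7, an expansin of root hairs, had a mean of 5.21 in 16C against 4.47 in 2C, a difference of 0.74 ± 0.12 (SE, limma adjusted p = 0.00335). EXPA18, a further root hair expansin, had 6.17 in 16C against 5.46 in 2C (0.70, adjusted p = 0.00264). With the actin covariate these differences were 0.99 for EXPA7 and 0.49 for EXPA18, and with the poly-A covariate 0.71 and 0.62. Neither of these 16C minus 2C differences was called in either fit (adjusted p between 0.0937 and 0.832). In 16C against 4C, both genes stayed called with the actin covariate (adjusted p = 0.0133 and 0.0145) and not with the poly-A one. In 16C against 8C, both stayed called with the poly-A covariate (adjusted p = 0.0427 and 0.0295) and not with the actin one. The shoot marker LHCB4.1, a light-harvesting protein, had its lowest mean in 8C, where JKD had its highest. It was 6.93 ± 0.73 against 8.98 in 2C (-2.05, limma adjusted p = 0.00691), where 11.6% of all probe sets were called lower. Its 8C minus 4C difference was -1.57 (adjusted p = 0.0422), a call that held under 9 of 21 alternative settings. With the actin covariate the 8C minus 2C difference of LHCB4.1 was -0.60 ± 1.53 and was not called (adjusted p = 0.999). LHCB4.1 was the 1 of 3 shoot markers measured. The part of other cell types in the signals of JKD and SGN3 was not tested.

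The partners of JKD were seen in part. Of 9 regulators of the SHR and SCR pathway 3 had a single-gene probe set, and 0 of them passed in the class test, the slope or any of the 6 differences. Over all probe sets 17.3% passed the class test, 21.5% had a called slope and 0.259% to 21.9% were called in a difference. Beside those shares, 0 of 3 does not set these regulators apart. BIB (AT3G45260), a close relative of JKD that acts with it, had means of 3.95, 4.05, 3.84 and 3.94 from 2C to 16C. The BIB probe set was dim, at percentile 13.9 of all probe sets. SCL23 (AT5G41920), a relative of SCR, had 4.90, 5.14, 4.94 and 5.01, and SEU, a transcriptional co-regulator, 5.28, 5.14, 5.36 and 5.33. The means of BIB and SCL23 were highest in 4C and that of SEU in 8C, with no difference that passed. Of 12 further IDD genes 3 were measured with 0 calls, beside the same shares over all probe sets. They were AT1G14580 with a mean of 4.68 in 8C and 4.41 in 2C, AT5G60470 with 4.22 in 8C and 4.01 in 2C, and IDD16 with 4.33 in 8C and 4.38 in 2C. In that order these 3 IDD genes lay at percentiles 36.0, 22.7 and 27.9 of all probe sets. The median 8C minus 2C difference of the 3 IDD genes was 0.21 and that of the 3 regulators 0.04. It was 0.06 over all probe sets, and JKD lay at 0.83.

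The signal of the gene for a ligand of SGN3 was lower in 8C and 16C than in 2C and 4C. The peptide itself was not measured, and which cell types gave the signal was not tested. Of 15 genes of the pathway and the Casparian strip 2 were measured, 1 with called differences, all of them falls. AT4G34600, the locus of the CIF2 peptide that SGN3 perceives, had signals of 9.14, 8.58 and 8.24 in 2C, 8.33, 8.22 and 7.71 in 4C, 6.22, 6.27 and 6.23 in 8C, and 6.92, 6.73 and 6.76 in 16C. All 8C and 16C arrays lay below all 2C and 4C arrays. Arrays of 16C lay below those of 4C without overlap for 13.5% of all probe sets, and the share with the whole pattern was not counted. AT4G34600 fell by 1.85 ± 0.22 in 8C against 4C (SE, limma adjusted p = 0.00155), or 3.6-fold, and by 2.41 ± 0.22 in 8C against 2C (adjusted p = 0.000105), or 5.32-fold. Among all probe sets 5.17% were called lower in 8C against 4C and 11.6% in 8C against 2C. It also fell in 16C against 2C by 1.85 (adjusted p = 0.000695), where 14.2% of all probe sets were called, and in 16C against 4C by 1.28 (adjusted p = 0.0115), which missed the threshold without 4C replicate 1, 4C replicate 2 or 16C replicate 2. Its slope was -0.74 ± 0.07 per doubling (adjusted p = 0.000122). With the actin covariate the difference of 8C minus 4C was -1.38 ± 0.37 (adjusted p = 0.411), that of 8C minus 2C -1.31 ± 0.74 (0.999), that of 16C minus 2C -1.11 ± 0.52 (0.745) and the slope -0.47 ± 0.18 (0.657), none of which was called. The 16C minus 4C difference stayed called with it (-1.18 ± 0.21, adjusted p = 0.0282). With the poly-A covariate 8C minus 4C, 8C minus 2C, 16C minus 2C and the slope stayed called (adjusted p between 0.00809 and 0.0435). In that fit 16C minus 4C was not called (adjusted p = 0.173).

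AT1G61590, the locus of the kinase SGN1 that acts below SGN3, had signals of 9.17, 7.58 and 9.77 in 2C, 11.2, 8.81 and 10.8 in 4C, 7.60, 8.70 and 8.21 in 8C, and 8.54, 8.33 and 9.26 in 16C. Its mean was highest in 4C, 10.3 ± 1.27 (SD, n = 3), as that of SGN3 was, but its 4C arrays overlapped those of 2C and 16C and no difference passed. The difference of 8C minus 4C was -2.08 ± 0.67 (SE, adjusted p = 0.0793) and that of 4C minus 2C 1.42 ± 0.67 (adjusted p = 0.376).

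Among receptor kinases related to SGN3, those of the LRR XI class and receptors of sulfated peptides, 5 of 18 were measured. RGI3 (AT4G26540), a receptor of root meristem growth factor peptides, was 0.27 ± 0.08 higher in 8C than in 2C (SE, limma adjusted p = 0.0364) and had a slope of 0.09 ± 0.03 (adjusted p = 0.0308), where 9.85% of all probe sets were called with a slope above 0. The calls held under 8 and 11 of 21 alternative settings. The first was lost without any one array of 2C, without 8C replicates 2 or 3 and without 16C replicates 1 or 2. The second was lost without any one array of 2C or 16C. Both were lost with the actin covariate (adjusted p = 0.999 and 0.958) and with the poly-A covariate (adjusted p = 0.123 and 0.179). The RGI3 probe set was dim, at percentile 15.7 of all probe sets. The other 4 did not pass in any comparison, among them the class test, which 17.3% of all probe sets passed. RGI1 (AT3G24240) had means of 6.01, 6.11, 5.35 and 5.81 from 2C to 16C and RGI2 (AT5G48940) 5.67, 5.68, 4.75 and 5.38, both lowest in 8C. PSY1R, the receptor named for the peptide PSY1, had 7.20, 7.31, 7.94 and 7.50, highest in 8C, and RGI5 (AT1G34110) 6.15, 6.10, 6.34 and 6.32. The median 4C minus 2C difference of the 5 was 0.10, beside 0.00 over all probe sets.

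**Figure D4:**
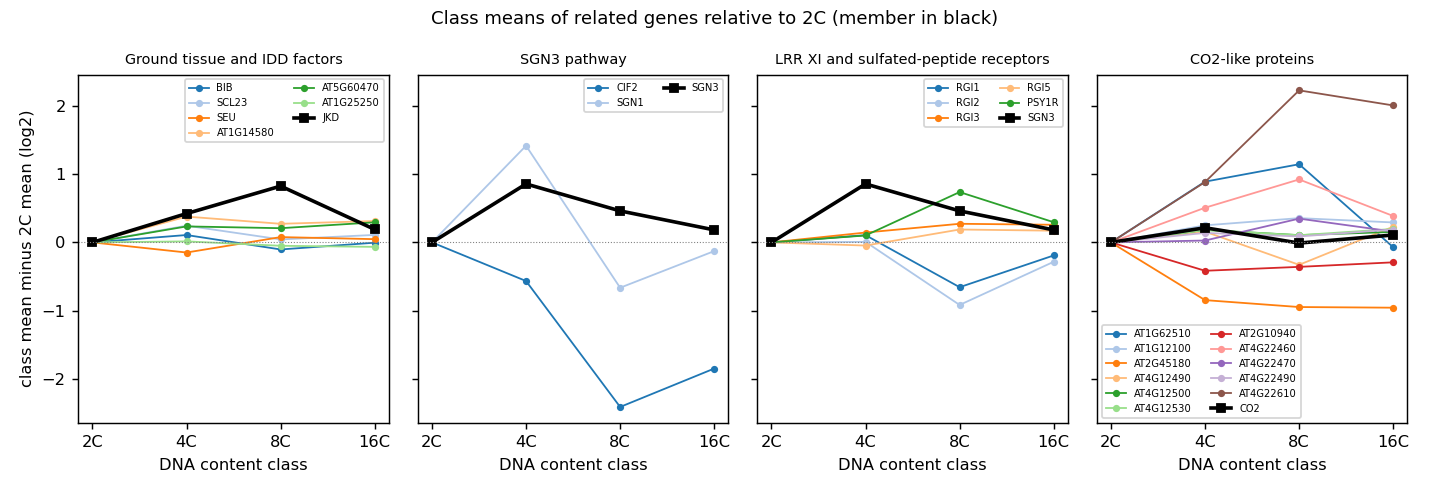
Class means relative to the 2C mean (log2, vertical axis) over the DNA content classes (horizontal axis), for measured genes of 5 lists in 4 panels; each line is a gene and the black line JKD, SGN3 or CO2. CIF2 (AT4G34600) lies 2.41 below its 2C mean in 8C, and JKD lies 0.83 above its own.

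Of 26 cysteine-rich proteins of the lipid-transfer superfamily like CO2, 11 had a single-gene probe set, and 0 passed the class test, beside 17.3% of all probe sets. In 8C against 2C, 2 of the 11 were higher and 0 lower, beside 10.3% of all probe sets called higher and 11.6% called lower. AT4G22460 was higher by 0.92 ± 0.28 (SE, limma adjusted p = 0.0411) and AT1G12100 by 0.36 ± 0.11 (adjusted p = 0.0488), calls that held under 5 and 6 of 21 alternative settings. The first was lost without any one array but 8C replicate 2, the second without any one but 4C replicates 1 and 3. The differences turned to -0.37 and -0.28 with the actin covariate. The AT1G12100 probe set was dim, at percentile 16.3 of all probe sets. AT4G22610 had a slope of 0.74 ± 0.24 per doubling (adjusted p = 0.0493), which held under 7 of 21 settings and was lost without any one array but 2C replicates 2 and 3 and 8C replicate 2. Its 16C arrays lay at 10.9, 10.9 and 9.98 and its 2C arrays at 6.57, 9.43 and 9.76. The median 8C minus 2C difference of the 11 was 0.11, beside 0.06 over all probe sets, and CO2 lay at -0.01.

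AT1G62510, a gene of this family and a further cortex marker, is the next annotated gene to CO2, starting 2858 bases beyond its end. Its signals were 6.60, 5.75 and 4.81 in 2C, 6.39, 6.76 and 6.67 in 4C, 7.43, 6.47 and 6.69 in 8C, and 5.69, 5.81 and 5.44 in 16C. All 4C and 8C arrays lay above all 16C arrays, while the 2C arrays ran across the range of both. Over all probe sets, 16C lay below 4C without overlap for 13.5% and below 8C for 11.3%. Its 8C minus 2C difference was 1.15 ± 0.39 (SE, limma adjusted p = 0.0597) and that of 16C minus 8C was -1.22 ± 0.39 (adjusted p = 0.277), neither of which passed. Its mean was thus highest in 8C, 6.86 ± 0.51 (SD, n = 3), as that of JKD was.

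On the other side of CO2, AT1G62490 had class means between 3.70 and 3.82 and no call. AT1G62480, the gene beyond it, had signals of 10.7, 10.0 and 9.68 in 2C, 10.6, 9.76 and 9.26 in 4C, 7.05, 7.09 and 7.51 in 8C, and 8.24, 8.15 and 7.89 in 16C. It fell by 2.64 ± 0.33 in 8C against 4C (SE, limma adjusted p = 0.00192), or 6.25-fold. With the actin covariate the difference was -1.90 ± 0.55 and was not called (adjusted p = 0.442). It stayed called with the poly-A covariate (-2.14 ± 0.41, adjusted p = 0.0389). The 16C minus 4C difference was -1.77 (adjusted p = 0.0179), where 3.57% of all probe sets were called. That difference stayed called with the actin covariate (-1.60 ± 0.32, adjusted p = 0.0403) and not with the poly-A one (-1.24, adjusted p = 0.274). It was the 1 of 3 measured neighbours of CO2 with called differences, where 9.9% of all probe sets were called in 8C against 4C and 21.9% in 8C against 2C.

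SGN3 overlaps its neighbour AT4G20150 by 337 bases in the TAIR10.1 table, and where the probes of either lie in that stretch was not analysed here. AT4G20150 had signals of 9.05, 8.44 and 8.26 in 2C, 7.98, 7.76 and 7.79 in 4C, 7.35, 7.38 and 7.55 in 8C, and 7.95, 7.97 and 7.59 in 16C. It fell by 1.16 ± 0.19 in 8C against 2C (SE, limma adjusted p = 0.00215), which was -0.10 ± 0.62 with the actin covariate and -0.98 ± 0.29 with the poly-A covariate, not called in either, and its mean was highest in 2C, where that of SGN3 was lowest. The other measured neighbour of SGN3, AT4G20160, had class means between 3.89 and 3.96. Of the 4 neighbours of JKD only AT5G03130 was measured, with means of 4.90, 5.54, 5.33 and 5.60 from 2C to 16C and no call.

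**Figure D5:**
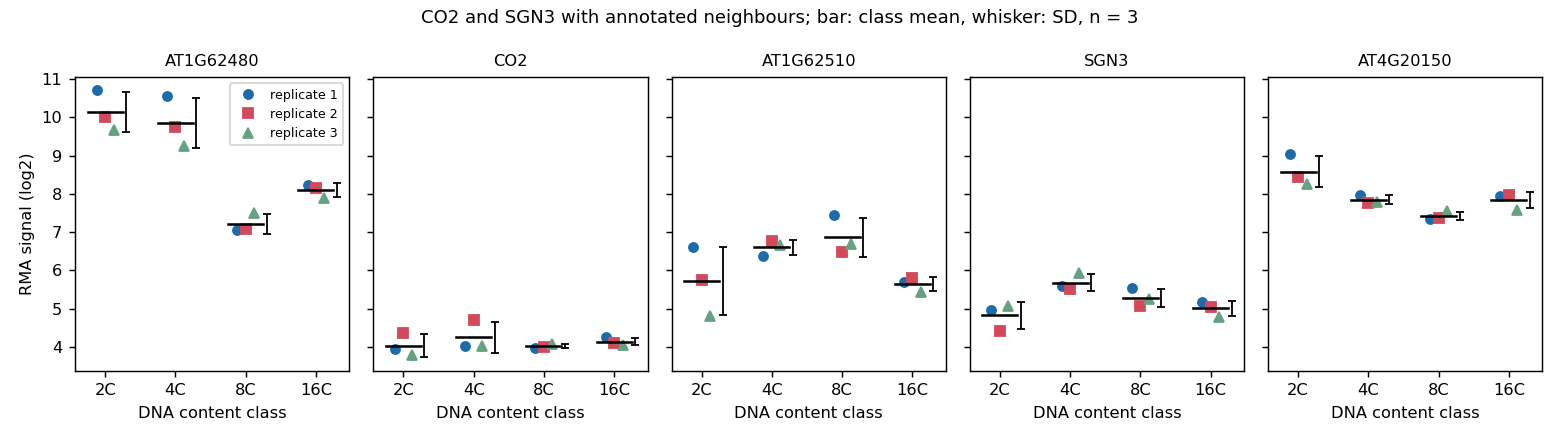
The RMA signal (log2, vertical axis) of CO2 and SGN3 and of 3 annotated neighbours by DNA content class (horizontal axis); symbols are replicates, bars class means and whiskers SDs (n = 3). AT1G62480 lies between 7.05 and 7.51 in 8C and between 9.26 and 10.6 in 4C, while CO2 stays between 3.78 and 4.70 on all arrays.

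The genes most like each of the 3 were those with the highest Pearson correlation over the 12 arrays, among 13229 single-gene probe sets without shared probes. The 12 points share 4 classes and a common normalization, and the values are given as descriptions. The genes were chosen on these same arrays, so class means that follow or mirror those of the 3 genes come with that choice. For JKD these were AT1G74300 (r = 0.94), AT2G36680 (0.94), AT1G03210 (0.92), URE (0.92), which encodes urease, and AT4G34500 (0.90). URE had means of 5.99, 7.06, 7.99 and 6.75 from 2C to 16C, and all 5 had their highest mean in 8C. The 3 most opposite were AT4G37445 (-0.93), AT2G38800 (-0.91) and AT1G56700 (-0.90), each lowest in 8C, such as AT4G37445 with means of 5.64, 5.26, 4.81 and 5.25 from 2C to 16C. At r above 0.8 there were 121 of the 13229 probe sets for JKD, 4 for SGN3 and 15 for CO2.

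For SGN3 the most like were AT2G42050 (r = 0.87), AT4G05170 (0.86), UGT72E3 (0.85), a glucosyltransferase of monolignols, AT1G10585 (0.81) and AT2G18420 (0.79). All 5 had their highest mean in 4C. AT4G05170 had means from 2C to 16C of 5.61 ± 0.55, 7.03 ± 0.95, 5.85 ± 0.06 and 5.74 ± 0.26 (SD, n = 3). The most opposite was CR4 (AT3G59420, r = -0.91), a receptor kinase known for formative divisions in the root, with means of 4.41, 4.08, 4.25 and 4.34 from 2C to 16C, followed by AT3G14740 (-0.82) and the mitochondrial gene ccb206 (-0.82).

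For CO2 the most like were AT3G28040 (r = 0.86), AT5G05900 (0.85), AT2G25355 (0.85), AT2G01630 (0.85) and HVA22C (0.84), and the most opposite FYD (-0.93), AT1G67330 (-0.89) and AT5G32440 (-0.88). Their rank correlations with CO2 were smaller in size than these values for each, such as 0.45 for AT5G05900 and 0.41 for AT2G01630. The class means of AT3G28040 lay between 4.56 and 4.67.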

How the data were processed

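RMA signals on the log2 scale, 1 per probe set and array, were deposited. RMA is named in the submitters' processing notes with no version, and its settings were not given in the sources used here. Nuclear RNA of each class was amplified in 2 rounds, per the labels' protocols. The DNA content in a sample's title gave its class, and 64 control probe sets were left out. A linear model over the 12 arrays without a block was fitted to the remaining 22746 probe sets with moderated variances (limma 3.58.1, R 4.3.3). The Benjamini-Hochberg adjustment ran over all of them, with 0.05 as the threshold. The number of arrays limits the precision. Gene names come from the platform's annotation and the TAIR10.1 gene table, which matched 13436 of 13513 single-gene probe sets; CO2, SGN3 and the names set beside locus codes (CIF2, SGN1, BIB, EN7, RGI1 to RGI5) are the common names of those loci and are not in these tables. Sequences were not used here. The 3 genes and all lists were chosen with earlier results of these data known. Genes named are the 3, all measured genes of the lists, the 2 annotated genes on each side, and the 5 most like and 3 most opposite in Pearson correlation. The fit and the permutation test were tested on simulated data. Alternatives were a replicate block, an intensity trend, array weights, filters on probe sets, cyclic loess, reference genes, only the arrays compared, covariates, averaging the close 16C pair, leaving out each array and exact permutation. The replicate numbers did not pair the arrays in the same way in all classes.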

Additional observations from a re-analysis of the deposited data

How the results depend on the processing

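JKD kept its class test and its 8C minus 2C difference under 24 of 25 alternative settings each. SGN3 kept its class test under 12 of 25, with adjusted p between 0.0349 and 0.109 when 1 array was left out. The settings of the class tests include the exact permutation, whose p was not adjusted. CO2 passed in none of its comparisons under any of 24 settings; its probe set was removed by leaving out the dimmest 40%. With the actin covariate the JKD 8C minus 2C difference was 0.57 and its class test 0.345, the SGN3 class test was 0.235, and CO2 differences turned to -0.18 (4C minus 2C), -0.36 (16C minus 2C) and -0.16 (slope). With the poly-A spikes as covariate the SGN3 class test was 0.103, its slope -0.063 and its 16C minus 2C difference -0.023, and CO2 had 0.0054 (8C minus 4C), 0.27 (8C minus 2C) and 0.13 (16C minus 4C). Averaging 16C replicates 1 and 2 gave the SGN3 class test 0.0726 and slope -0.0013. The CO2 slope was -0.0067 with array weights and -0.014 with cyclic loess, and its 8C minus 2C difference 0.065 when scaled to reference genes. That scaling used 11 probe sets of a list written from general knowledge and gave a median 4C minus 2C difference over all probe sets of 0.11, against 0.00 without it. Without single arrays, the slope lay between 0.077 and 0.13 for JKD (adjusted p = 0.0476 without 2C replicate 2), between -0.045 and 0.054 for SGN3 and between -0.027 and 0.062 for CO2. In the same way 16C minus 2C lay between -0.017 and 0.31 for SGN3, and for CO2 4C minus 2C between -0.013 and 0.39, 8C minus 2C between -0.13 and 0.16, 16C minus 2C between -0.016 and 0.28, 8C minus 4C between -0.34 and 0.0025 and 16C minus 4C between -0.22 and 0.12. These sign changes are of values near 0 that never passed; the cause was not tested. The slope of JKD minus CO2 (0.087) was not called, whereas the class test of the same difference was (adjusted p = 0.0275).

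Same-numbered arrays were not alike in all classes. Of 18 pairs of same-numbered arrays, 9 had deviations from the class means correlated above 0.1 (range -0.49 to 0.49), and 6 of 12 arrays correlated best with their own number. Among 2C, 4C and 16C, same-numbered pairs of replicates 2 and 3 correlated at 0.23 to 0.49, but with 8C at -0.49 to -0.16. Pairs of replicate 1 lay between -0.25 and 0.16. Whether the numbers mark a shared batch was not tested. With the fixed replicate block JKD was also called along the slope (0.10, adjusted p = 0.0305), in 8C against 4C (adjusted p = 0.022) and in 16C against 8C (adjusted p = 0.0418). With a random block only 8C against 4C was called of these (adjusted p = 0.0481).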
